A study of Mus musculus with 7 samples.

Results

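Regulatory T cells are CD4 T cells that carry the transcription factor Foxp3 and restrain other lymphocytes. Here they were taken by a rule on transcripts from leukocytes of mouse brains bearing GL261, a transplanted mouse glioma line. A barcode was kept when it held 300 or more genes and no more than 10% of its UMIs (unique molecular identifiers, each a counted transcript) were mitochondrial. It was called a regulatory T cell with at least 1 Foxp3 UMI, at least 2 UMIs summed over Cd3e, Cd3d and Cd3g, and none of Cd8a, Cd8b1 or the proliferation gene Mki67. Barcodes with more than 3 UMIs of the complement genes C1qa, C1qb and C1qc, or with more than 0.3% of their UMIs from Lyz2 and Apoe, were left out, because these are abundant transcripts of macrophages. The rule left 428 cells of 40416 kept barcodes. Values of Foxp3, CD3, CD8, Mki67, complement, Lyz2 and Apoe therefore describe the choice of cells and were not tested.

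The study asked how the HIF-2α inhibitor PT2385 acts on leukocytes in this glioma, alone and together with ICB, a checkpoint blockade by antibodies against PD-1 and TIM-3. Wild-type female mice aged 8 to 9 weeks carried the tumour in the left hemisphere, dosing with PT2385 (10 mg/kg) began on day 7, and living CD45-positive cells were sorted on day 21. Libraries analysed were 2 of PT2385 plus ICB (the combination), 2 of PT2385, 2 of ICB and 1 of untreated mice, and the other untreated pool of the design is not analysed here. Each library pooled 5000 cells from each of 2 mice, so a replicate is a pool, the mice within it cannot be told apart, and p-values measure the spread between pools. The labels describe vehicle and isotype antibodies without saying which mice received them. Sequencing gave 59839154 to 81960504 UMIs per library, in 4847 to 7961 kept barcodes.

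Foxp3 holds the regulatory programme in place. The high-affinity interleukin-2 receptor chain (Il2ra, CD25) draws interleukin-2 away from neighbouring cells, and CTLA-4 removes costimulatory ligands from antigen-presenting cells. In tumours, regulatory T cells commonly carry more of the TNF-family receptors OX40 (Tnfrsf4), 4-1BB (Tnfrsf9) and GITR (Tnfrsf18) than those in blood, and together with interleukin-10 and granzyme B these are read as signs of an activated state. HIF-2α, encoded by Epas1, and its relative HIF-1α, encoded by Hif1a, are subunits of transcription factors that build up when oxygen is low.

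The myeloid criteria decided a large part of the membership. Of 1536 kept barcodes with a Foxp3 UMI, 1371 had the CD3 transcripts, 949 of these had no CD8 UMI, and 620 of these had no Mki67 UMI. Another 192 were then removed, 57 on complement alone, 38 on Lyz2 and Apoe alone, and 97 on both. 27 members stood at or just under the complement threshold or the Lyz2 and Apoe threshold. 11 of the removed barcodes exceeded these thresholds only narrowly, so both thresholds run through a continuous range. 177 members had no complement UMI at all. A further 189 Foxp3-positive T cells were cycling by Mki67 and are not described here. 124 members rest on a single Foxp3 UMI and 218 on 3 or more, and Foxp3 was detected in 0.326 to 0.452% of macrophage barcodes of the same libraries (median 10426 to 14886 UMIs), where the gene should be silent. 180 barcode sequences occurred in more than 1 library, none of them among the members.

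The number of cells set the depth of each library's profile. The combination pools gave 48 and 21 regulatory T cells, the PT2385 pools 55 and 50, the ICB pools 97 and 42, and the untreated pool 115. Their summed UMIs came to 433589 and 181070 in the combination, 523086 and 430284 with PT2385, 879387 and 408925 with ICB, and 971240 in untreated mice. The second combination pool is thus the shallowest profile and the untreated one the deepest. Median UMIs per cell lay between 6479 and 8477 in all 7 libraries.

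Regulatory T cells made up 0.990 and 0.387% of kept barcodes in the combination pools, 1.06 and 0.943% in the PT2385 pools, 1.65 and 0.723% in the ICB pools, and 1.44% in the untreated pool. Libraries with and without PT2385 overlapped, as did those with and without ICB. The mean was 0.845 ± 0.309% with PT2385 (SD, n = 4) and 1.27 ± 0.486% without it (n = 3), and the exact two-sided permutation test gave p = 0.229. With ICB the mean was 0.937 ± 0.534% (n = 4), against 1.15 ± 0.263% without it (n = 3; exact permutation p = 0.571). The smallest p that this two-sided permutation test gives for 4 against 3 libraries is 0.0571, reached when the groups separate completely. That is above the threshold used for the gene tests, so this test could not call a difference in shares.

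As a share of T cells without CD8 or Mki67 UMIs, the cells came to 17.5 and 13.7% in the combination, 19.6 and 19.8% with PT2385, 17.5 and 14.8% with ICB and 26.1% in untreated mice. Every library with ICB lay below every library without it. The mean was 15.9 ± 1.94% with ICB (SD, n = 4) and 21.8 ± 3.71% without it (n = 3), an exact permutation p of 0.0571. This difference did not pass, but its p is the smallest that the test gives for 4 against 3 libraries. No difference could have passed, so the test cannot decide whether this share differed with ICB. After each cell was thinned to 3000 UMIs, Foxp3-positive cells were 11.8 ± 2.40% of these T cells with ICB and 15.6 ± 4.15% without it (n = 4 and 3, exact permutation p = 0.286). For PT2385 the shares of T cells were 17.7 ± 2.82% with the drug and 19.5 ± 5.92% without it (n = 4 and 3, exact permutation p = 0.629).

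**Figure D1:**
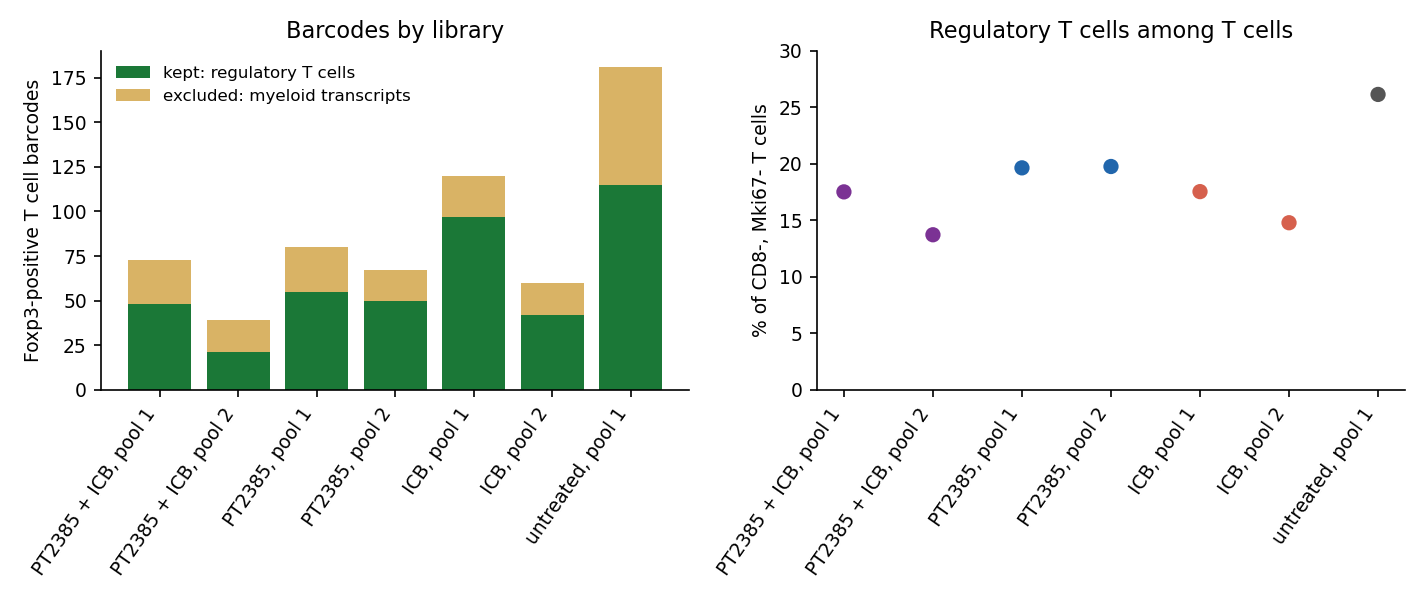
Left, Foxp3-positive, CD8- and Mki67-negative T cell barcodes of each library (y axis, number), split into the regulatory T cells kept (green) and those excluded for myeloid transcripts (tan). Right, regulatory T cells as a percentage of CD8- and Mki67-negative T cells, 1 point per library; the combination and ICB libraries sit at 13.7 to 17.5%, PT2385 alone at 19.6 and 19.8% and the untreated library at 26.1%.

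The name was then set against marker lists. Summed over 6 markers of regulatory T cells, the members held 7918 to 9696 CPM (the gene's share of the UMIs summed over those cells of a library, scaled to 1e+06), against 2237 to 3601 CPM in 1042 conventional CD4 T cells of the same libraries. These comparison cells had at least 1 Cd4 UMI, no Foxp3 UMI and met the same CD3, CD8, Mki67 and myeloid criteria. 16 monocyte and macrophage markers summed to 751 to 1844 CPM in regulatory T cells and to 918 to 1257 CPM in conventional cells, far under the 16727 to 32214 CPM of the excluded barcodes. 8 microglia markers stood at 112 to 193 CPM in regulatory and 120 to 212 CPM in conventional cells. The rule fixed most of this, since it limited complement, Lyz2 and Apoe in both kinds of T cell and removed the excluded barcodes for them. Myeloid transcripts were not absent: Fcer1g, a receptor chain of myeloid and mast cells, had 720 UMIs in 116 of the 428 members.

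Dendritic transcripts, which the rule did not use, remained. 11 dendritic markers, which include MHC class II and Cd74, summed to 4585 and 398 CPM in the combination pools, 8152 and 4559.8 CPM in the PT2385 pools, 3530 and 5705 CPM in the ICB pools and 6037 CPM in the untreated pool. Conventional CD4 T cells held 915 to 3941 CPM. All 11 markers were detected among the members. Of the other lists, erythroid genes were at 0. 6 B and plasma cell markers summed to 9.27 to 106 CPM, 5 NK markers to 5.74 to 55.2 CPM and 6 neutrophil markers to at most 18.5 CPM, with Retnlg at 0. 7 neural or glioma-like markers summed to 86.5 to 127 CPM, with Olig1, Sox2 and Gfap at 0, and to 107 to 177 CPM in conventional cells. 3 gamma-delta T cell markers summed to 0 to 287 CPM, against 9.00 to 122 CPM in conventional cells. 5 markers of group 2 innate lymphoid cells were higher in the members, at 325 to 1132 CPM against 183 to 454 CPM.

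Among the members, 3 barcodes stood out for transcripts of mast cells, basophils or choroid plexus. A barcode of the untreated library (36778 UMIs) held 1287 of the 1303 Mcpt1 UMIs, 2156 of the 2186 Mcpt2 UMIs and all 108 Mcpt8 UMIs of the whole set; these genes encode proteases of mast cells and basophils. It had 1 Foxp3 UMI and 32 UMIs of Ikzf2. A barcode of the first combination pool (23576 UMIs) held 2979 of 3178 Ttr UMIs, the transthyretin of choroid plexus, with 2 Foxp3 UMIs. A second barcode of that pool (8170 UMIs) held 55 of 110 Tpsb2 UMIs, 37 of 176 Cpa3 UMIs, 9 Mcpt2 UMIs and 6 Cma1 UMIs, all of mast cell genes, with 3 Foxp3 UMIs. All 3 met every criterion of the rule and stayed in, and results that rest on them are given below with that fact. They were not the only members with transcripts of other cells. Of the 428 members, 378 had fewer than 10 marker UMIs of other cell types, and these held 2859222 of the 3827581 UMIs. Single barcodes of the ICB pools held 48 of 214 Igkc, 44 of 155 Bcl11a and 38 of 127 Cd209a UMIs.

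Against conventional CD4 T cells the members carried the known core of the lineage, given here as a description because Foxp3 chose both sets. Il2ra ranged from 722 to 1419 CPM in regulatory cells and from 139.5 to 249 CPM in conventional cells, without overlap. Ikzf2, which encodes the transcription factor Helios, had a median of 3079 CPM over libraries in regulatory and 477 CPM in conventional cells. Its relative Ikzf4 (Eos) had medians of 113 and 22.3 CPM. Ctla4 differed less, with medians of 2548 CPM in regulatory and 1302 CPM in conventional cells. These genes were higher in regulatory cells in 7 of 7 libraries.

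Genes of TGF-β presentation and tissue lodging stood with them. Lrrc32, which encodes GARP, the surface anchor of latent TGF-β, had medians of 97.8 CPM in regulatory and 15.1 CPM in conventional cells. Itgb8, a chain of the integrin that frees TGF-β, had 298 and 46.3 CPM, and Itgae, the CD103 integrin chain that binds E-cadherin, had 123 and 14.4 CPM. The effector genes Gzmb (616 against 76.2 CPM) and Il10 (205 against 40.5 CPM) followed the same order. So did the receptors Tnfrsf9 (1291 against 533 CPM), Tnfrsf4 (1191 against 488 CPM) and Tnfrsf18 (721 against 297 CPM). The chemokine receptor gene Ccr2 (265 against 123 CPM) was higher as well, while Ccr8, often used as a mark of tumour regulatory T cells, was not set apart, at 42.1 CPM in regulatory and 40.4 CPM in conventional cells.

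Other genes stood lower in regulatory T cells, and those named here were picked after their values were seen. Tnfsf8, the CD30 ligand, had a median of 30.0 CPM in regulatory and 327 CPM in conventional cells. Cd40lg, which helper cells use to license antigen-presenting cells, had 24.9 and 125 CPM. Tcf7, a factor of resting and stem-like T cells, had 22.9 and 106 CPM, and the tissue chemokine receptor gene Cxcr6 had 239.7 and 516 CPM. Cd4 itself was lower, at 216 CPM in regulatory cells and 466 CPM in conventional ones, but the conventional cells were chosen for a Cd4 UMI, and 273 of the 428 members had one. For the drug's target family, Hif1a stood at 559 CPM in regulatory and 919.8 CPM in conventional cells, and Epas1 was scarce in both, at 18.2 and 9.10 CPM. Of 3897 genes with at least 50 CPM, 452 were higher and 372 lower in regulatory T cells in all 7 libraries.

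**Figure D2:**
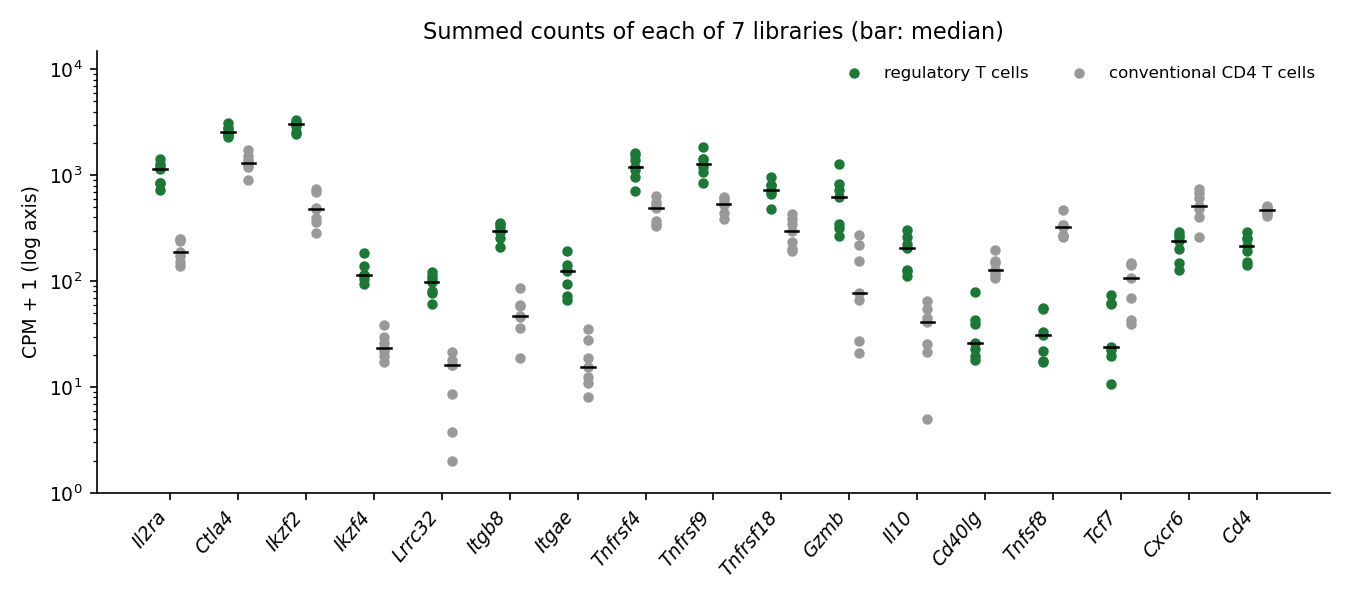
Summed counts of regulatory (green) and conventional CD4 T cells (grey) for 17 genes, with 1 point for each of the 7 libraries and a bar at the median; the y axis is CPM + 1 on a log scale. Il2ra lies at 722 to 1419 CPM in regulatory and 139.5 to 249 CPM in conventional cells, while Tnfsf8 and Cd40lg lie lower in regulatory cells.

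The same order appeared cell by cell at equal depth. At 3000 UMIs per cell (393 regulatory and 966 conventional cells deep enough), Il2ra was detected in 69.2% of regulatory and 26.3% of conventional cells, and Ikzf2 in 94.1 and 33.0%. Without thinning these shares were 81.3 and 39.3% for Il2ra and 97.2 and 43.1% for Ikzf2. Gzmb was detected in 54.2% of regulatory and 17.6% of conventional cells without thinning, and Itgae in 21.9 and 2.69% with it. Factors of other helper lineages were not set apart to this degree, with Tbx21 (T-bet) in 25.7 and 35.5% and Gata3 in 20.6 and 18.6%.

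The members were not uniform. Of the 393 thinned cells, 343 (87.3%) had a UMI of the effector genes Gzmb, Il10 or Tnfrsf9, and without thinning the share was 91.1%. These effector genes were found in 74.4 and 94.4% of cells in the combination pools, 80.8 and 86.7% in the PT2385 pools, 87.5 and 85.0% in the ICB pools and 95.3% in the untreated pool. The untreated pool was the highest, close to the second combination pool, and the treated groups overlapped.

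Cells with more Foxp3 also held more of several lineage genes, which is given as a description because the cells share libraries and the rule. Tnfrsf4 was detected in 76.6% of 124 cells without a Foxp3 UMI after thinning, in 83.2% of 149 cells with 1 and in 94.2% of 120 cells with at least 2. Mean Il2ra was 2.57, 2.92 and 4.86 UMIs in the same order, and mean Ikzf2 8.02, 9.98 and 11.7 UMIs. Itgae was detected in 17.7, 18.1 and 30.8%. Gzmb differed little along this order, at 41.1, 46.3 and 47.5%.

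The next question was how regulatory T cells differed with PT2385. Across 7551 genes, PT2385 was compared in the 4 libraries that received it with the 3 that did not, ICB being a term of the model, with the edgeR quasi-likelihood test on counts summed per library and Benjamini-Hochberg adjustment. Few genes passed, and no activation gene did: 4 genes had an adjusted p under 0.05 (0.053% of those tested), all lower with PT2385, and DESeq2 called 7. At an unadjusted p under 0.05 there were 449 (5.95%). The 4 genes were Mcpt1, Mcpt2, Mcpt8 and Ccl22.

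The 3 mast cell and basophil proteases rest on the single untreated barcode described above. Mcpt2 stood at 1.91 and 2.32 CPM in the PT2385 pools and 20.8 and 0 CPM in the combination pools, against 10.2 and 4.89 CPM in the ICB pools and 2228 CPM in the untreated pool. In summed UMIs that is 11 with and 2175 without PT2385, of which 2156 came from that barcode (log2 fold change -7.08 ± 1.10 SE, adjusted p = 0.0404). Mcpt1 had 2 UMIs with and 1301 without PT2385 (adjusted p = 2.62e-07), and Mcpt8 had 0 and 108 (adjusted p = 0.0220). Leaving out the untreated library gave 0 calls for PT2385, and leaving out any other gave between 1 (without the first PT2385 pool) and 8 (without the first combination pool).

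Ccl22, a chemokine made mostly by dendritic cells that attracts regulatory T cells through CCR4, stood at 3.82 and 0 CPM in the PT2385 pools and 0 and 0 CPM in the combination pools, against 34.1 and 61.1 CPM in the ICB pools and 37.1 CPM in the untreated pool. The groups did not overlap. Summed, there were 2 UMIs with and 91 without PT2385, which is 31.6-fold lower (95% interval 8.49 to 265, counting error only), with an adjusted p of 0.0220. The 93 UMIs lay in 10 barcodes. The call was lost without the untreated pool, without either PT2385 pool, without the second ICB pool and without the first combination pool, with an adjusted p of at most 0.230 in these fits. It was also lost without the 11 members of high doublet score (adjusted p = 0.838) and among 378 cells with fewer than 10 marker UMIs of other cell types (adjusted p = 0.907; range over all alternatives 8.8e-12 to 0.998). Cd209a, a dendritic cell lectin, was the next gene by p, with 3 UMIs with and 124 without PT2385 in 15 barcodes (adjusted p = 0.0519). Among the dendritic markers given above, Cd209a did not overlap, at 0 to 3.82 CPM with and 28.4 to 127 CPM without PT2385. The sum of that list, which includes MHC class II and Cd74, did overlap. The part of dendritic transcripts in Ccl22 was not tested.

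**Figure D3:**
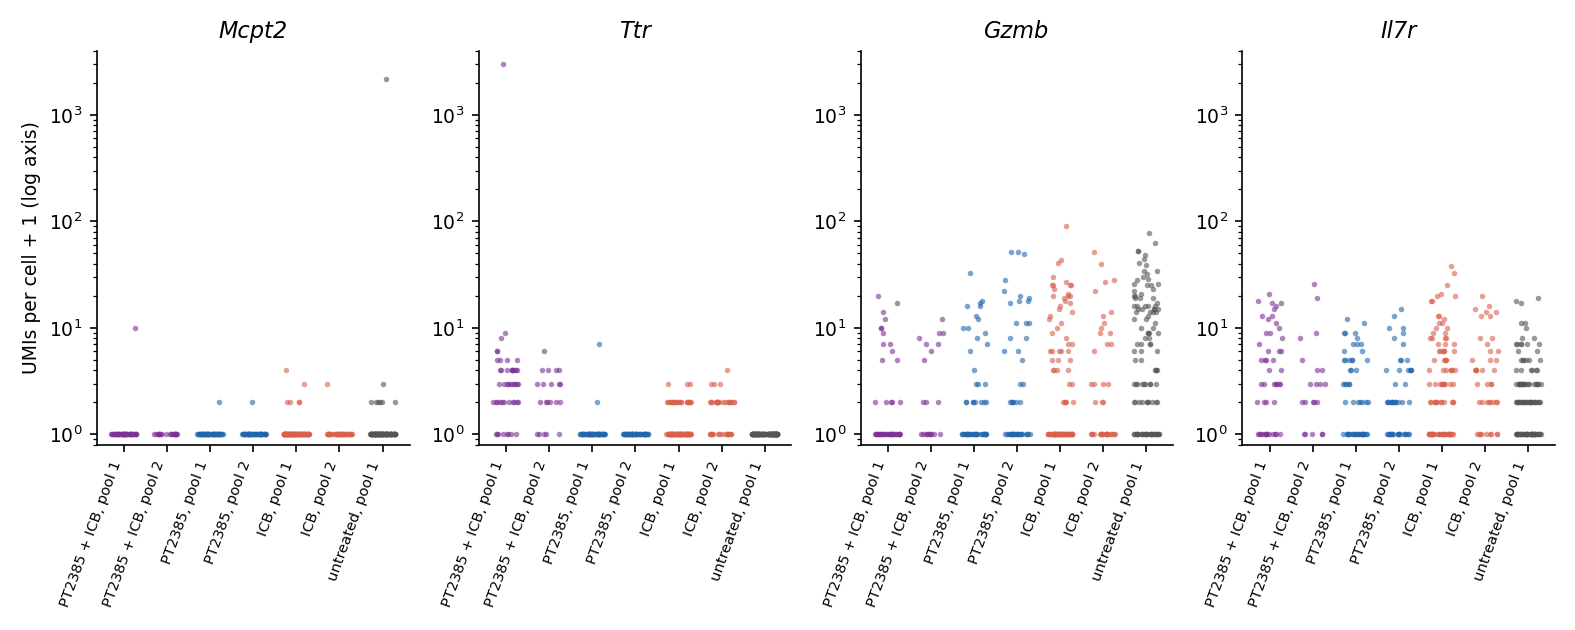
UMIs per cell, plus 1, on a log axis for Mcpt2, Ttr, Gzmb and Il7r; each point is 1 of the 428 regulatory T cells, by library. A single untreated cell holds 2156 Mcpt2 UMIs and a single cell of the first combination pool 2979 Ttr UMIs, while Gzmb and Il7r are spread over many cells of every library.

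The activation list held 35 genes, all tested, and 0 passed. 27 of the 35 had a log2 fold change below 0 with PT2385, where 48.3% of all genes did. Their median was -0.17, against 0.01 for all genes, and the range was -1.32 to 0.87. At an unadjusted p under 0.05, 9 were lower (3.44% of all genes) and 2 higher (2.50%). The libraries of 3 genes, Maf, Prdm1 and Ccr8, did not overlap, all lower with PT2385 (2.49% of all genes). The genes named from this list in what follows were picked by role or for an unadjusted p under 0.05 after their values were seen.

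Granzyme B came nearest to the threshold. Gzmb stood at 342 and 820.4 CPM in the PT2385 pools and 265 and 320.3 CPM in the combination pools, against 730.1 and 616 CPM in the ICB pools and 1288 CPM in the untreated pool. All combination and 1 of the PT2385 values lay below every library without the drug, but the second PT2385 pool overlapped. The log2 fold change was -1.22 ± 0.23 (SE) with an adjusted p of 0.0877. Its 2850 UMIs lay in 232 cells and the highest cell held 3.16% of them. It passed in 4 of 19 alternatives, among them DESeq2 and the fit without the second PT2385 pool, and its log2 fold change stayed between -1.51 and -0.94 in all 19.

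Of 13 costimulatory receptor genes, 8 were below 0 and 5 above (48.3% of all genes below), 0 passed, the median was -0.10 and the range -0.56 to 1.32. At an unadjusted p under 0.05, Tnfrsf4 and Tnfrsf9 were lower and Cd40lg higher. Tnfrsf4 had 1191 and 1401 CPM in the PT2385 pools and 717 and 955 CPM in the combination pools, against 1109.9 and 1636 CPM in the ICB pools and 1561 CPM in the untreated pool. Its log2 fold change was -0.56 ± 0.17 (adjusted p = 0.558). For Tnfrsf9, the PT2385 pools had 1189 and 1436 CPM and the combination pools 853 and 1071 CPM, against 1291 and 1832 CPM with ICB and 1428 CPM in untreated mice (-0.49 ± 0.17, adjusted p = 0.599). Tnfrsf18 gave -0.36 ± 0.18 and Icos -0.02 ± 0.19. For Tnfrsf4, Tnfrsf9, Tnfrsf18 and Icos libraries with and without PT2385 overlapped, and the 2 combination pools held the lowest values of Tnfrsf4 and Tnfrsf9. Over the 13 genes, 1 was higher with PT2385 without overlap and 0 were lower.

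Among the suppressive genes, Il10 had 124 and 125 CPM in the PT2385 pools and 111 and 304 CPM in the combination pools, against 225 and 205 CPM with ICB and 259 CPM in untreated mice (-0.61 ± 0.28, adjusted p = 0.837). The second combination pool was the highest of all, so the groups overlapped. Lgals1, which encodes the suppressive lectin galectin-1, gave -0.67 ± 0.21 (adjusted p = 0.561), and Il1r2, a decoy receptor for interleukin-1, -0.53 ± 0.24 (adjusted p = 0.837). Nt5e, the ecto-enzyme CD73 that makes adenosine, ran the other way, with 310 and 284 CPM in the PT2385 pools and 436 and 961 CPM in the combination pools, against 293 and 254 CPM with ICB and 238 CPM in untreated mice (0.87 ± 0.26, adjusted p = 0.558). Without the second combination pool its value was 0.46, and it was 0.21 with the myeloid criteria dropped and 0.37 with stricter ones. Entpd1, the partner enzyme CD39, gave -0.37 ± 0.20 and Tgfb1 0.23 ± 0.21.

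Of the receptors and transcription factors on the list, none passed. Il2ra averaged 960.1 ± 312 CPM with PT2385 (SD, n = 4) and 1216 ± 71.5 CPM without it (n = 3; log2 fold change -0.36 ± 0.19 SE, adjusted p = 0.889). Ctla4 averaged 2510.1 ± 211 CPM with and 2776 ± 362 CPM without PT2385 (-0.13 ± 0.10), and Ikzf2 2940 ± 286 CPM and 2944 ± 434 CPM (-0.03 ± 0.11). Maf, a factor for interleukin-10 production, averaged 518 ± 77.1 CPM with and 710.0 ± 67.8 CPM without the drug, without overlap (-0.47 ± 0.14, adjusted p = 0.560). Prdm1, which encodes the effector factor Blimp-1, averaged 68.7 ± 21.7 and 92.1 ± 2.32 CPM, again without overlap (-0.55 ± 0.25, adjusted p = 0.820). Klrg1, a mark of terminally differentiated effector cells, averaged 30.9 ± 18.8 and 64.0 ± 33.6 CPM (-1.32 ± 0.45, adjusted p = 0.602), with -0.62 when the untreated pool was left out and -1.69 without the second combination pool. Pdcd1, which encodes PD-1, averaged 275 ± 94.5 CPM with and 156 ± 53.6 CPM without PT2385 (0.83 ± 0.27, adjusted p = 0.587).

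**Figure D4:**
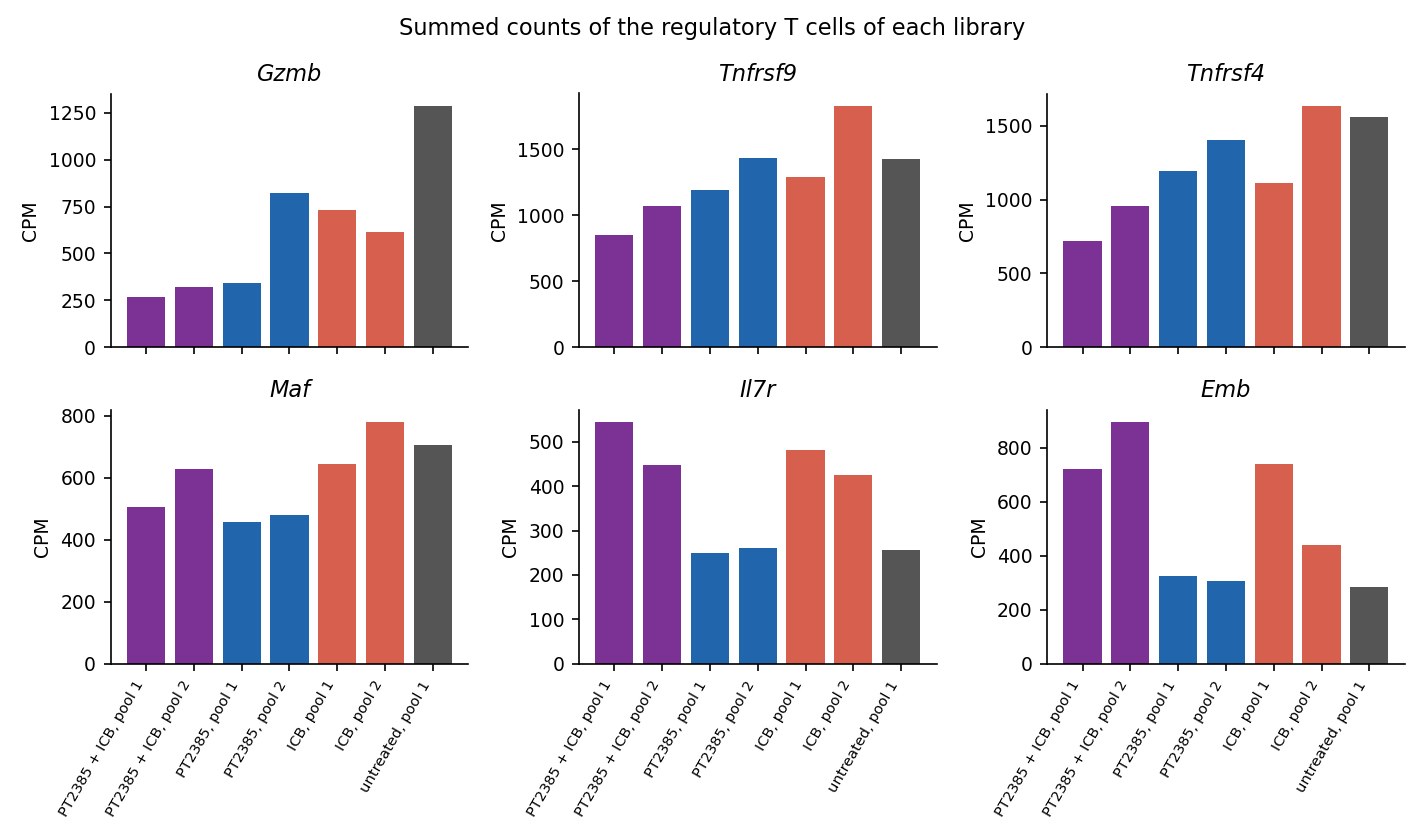
CPM of 6 genes in the summed regulatory T cells of each library, 1 bar per library, with axes from 0. Gzmb is highest in the untreated library (1288 CPM) and lowest in the first combination pool (265 CPM), and Il7r is higher in the 4 libraries with ICB (426 to 544 CPM) than in the 3 without (249 to 260.3 CPM).

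How far the activation genes lay below 0 depended on the myeloid criteria. With those criteria dropped (620 barcodes, 9796 genes tested), 29 of 35 were below 0 (47.7% of all genes), 13 of them lower at an unadjusted p under 0.05 (4.36%), with a median of -0.29, and still 0 passed; 5 genes passed in all (0.051%). With stricter criteria, no complement UMI and at most 0.1% Lyz2 and Apoe (161 cells, 9 to 46 per library, 5167 genes), 17 of 35 were below 0 (49.2% of all genes), the median was 0.02 and 3 were lower at an unadjusted p under 0.05 (1.92%). Gzmb gave -1.20 with the criteria dropped, -1.22 with the rule and -0.94 with stricter ones, and Tnfrsf4 gave -0.73, -0.56 and -0.43. Ctla4 gave -0.47, -0.13 and -0.23, and Tnfrsf18 -0.67, -0.36 and -0.30. Il10, Klrg1 and Il1r2 ended above 0, at 0.29, 0.21 and 0.68 under the stricter criteria. Other settings went the other way. In cells with no UMI of other cell types, 29 of 35 were below 0 with a median of -0.45, against -0.07 for all genes. Il10, Klrg1 and Gzmb passed there, with 6 and 4 cells in the combination pools. Without a filter on low counts 7 passed, Pdcd1, Tnfrsf9, Tnfrsf4, Klrg1, Nt5e, Gzmb and Lgals1. Calls over all genes also rose in these settings. The excluded barcodes held 16727 to 32214 CPM of macrophage markers, and the part of those transcripts in the differences between criteria was not tested.

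**Figure D5:**
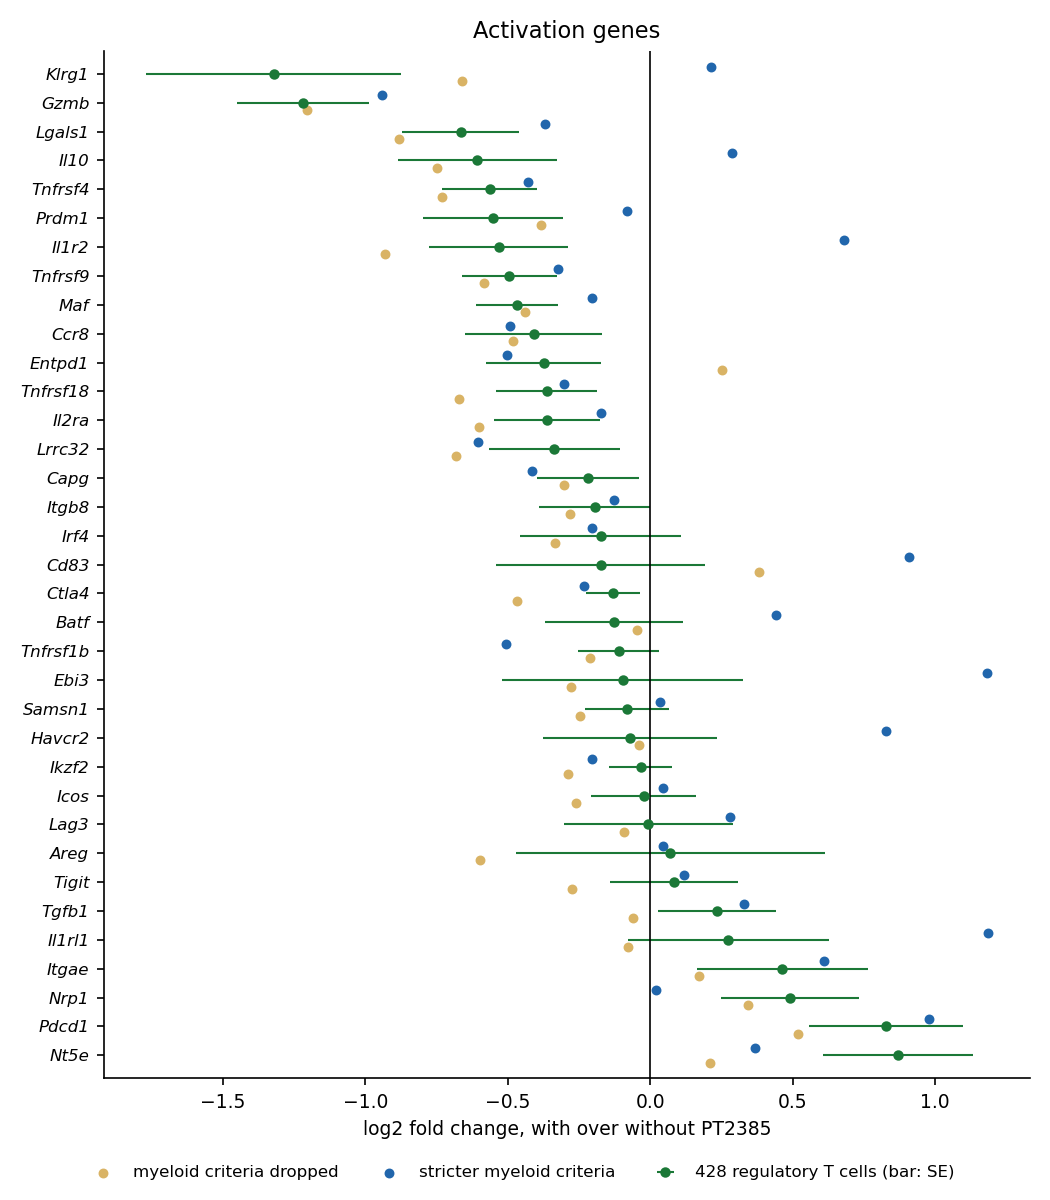
Log2 fold change of each of 35 activation genes with over without PT2385 (x axis) in the 428 regulatory T cells (green, bar for the SE), with the myeloid criteria dropped (tan) and with stricter criteria (blue). Gzmb and Tnfrsf4 stay below 0 in all 3 sets, while Klrg1, Il10 and Il1r2 lie above 0 with stricter criteria.

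Other lists gave no call for PT2385 in the 428 cells. Of 33 tested type I interferon response genes (36 listed), 27 were below 0 (48.3% of all genes) with a median of -0.26, and 7 were lower at an unadjusted p under 0.05 (3.44%). With the myeloid criteria dropped, 32 of 34 were below 0 (47.7%) with a median of -0.51, 21 were lower at an unadjusted p under 0.05 (4.36%), and 1 passed, Oasl1 (-1.30 ± 0.16, adjusted p = 0.0125), named after its value was seen. In the 428 cells Oasl1 gave -0.93 ± 0.44 (adjusted p = 0.839), and the part of the macrophage transcripts of the excluded barcodes in this was not tested. Irf7, an inducer of the response, stood in the 428 cells at 117 ± 32.6 CPM with and 193 ± 78.0 CPM without PT2385 (SD, n = 4 and 3; log2 fold change -0.71 ± 0.28 SE, adjusted p = 0.761). Of 31 tested hypoxia and glycolysis genes (36 listed), 23 were below 0 with a median of -0.15. Hif1a gave -0.09 ± 0.24 and Epas1 -0.01 ± 0.51, and the 9 tested HIF subunit and regulator genes had a median of 0.04. PT2385 acts on a protein, so these transcripts do not show whether it reached its target. Of the 17 tested early genes of T cell receptor signalling (18 listed), 2 were below 0 (48.3% of all genes) and the median was 0.30. At an unadjusted p under 0.05, 1 was lower (3.44% of all genes) and 2 higher (2.50%). With the myeloid criteria dropped, 6 of 18 were below 0 (47.7%) and the median was 0.10. Of 21 tested chemokine receptor and homing genes (24 listed), 0 passed, 7 were below 0 (48.3% of all genes) and the median was 0.07. At an unadjusted p under 0.05, 1 was lower (3.44%) and 1 higher (2.50%). The higher was Cxcr3, named after its value was seen. It averaged 174 ± 22.2 CPM with and 100.2 ± 15.8 CPM without PT2385, without overlap (0.80 ± 0.19, adjusted p = 0.335).

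ICB was then compared in the same model. 7 genes passed (0.0927% of 7551), 4 higher and 3 lower with ICB; DESeq2 called 11 and 458 had an unadjusted p under 0.05 (6.07%). Without the untreated library 1 gene passed. Il7r and Emb, both spread over many cells, rose, as did the noncoding Gm42418. The mast cell and basophil genes Mcpt1, Mcpt2 and Mcpt8 fell, and these rest on the single untreated barcode. Ttr stood at 7106 and 182 CPM in the combination pools and 31.8 and 70.9 CPM in the ICB pools, against 13.4 and 0 CPM in the PT2385 pools and 0 CPM in the untreated pool, and rose without overlap (8.90 ± 1.37, adjusted p = 0.0336). 1 combination cell held 2979 of its 3178 UMIs, but the call did not rest on that cell alone: Ttr was detected in 40 and 16 cells of the combination pools and 25 and 24 of the ICB pools, against 2 and 0 of the PT2385 pools and 0 of the untreated pool. Among the 378 cells with fewer than 10 marker UMIs of other cell types it gave 4.91 ± 0.53 (adjusted p = 0.000486). Ttr is itself one of the markers counted there, so that choice kept every cell under 10 Ttr UMIs. The value in that set is therefore not separate support for the call. Without the first combination pool Ttr gave 4.99. The call was lost without the untreated pool or either PT2385 pool, with at least 2 Foxp3 UMIs, with the myeloid criteria dropped and with 1 mean per group. It passed in 12 of 18 alternatives (adjusted p 1.5e-227 to 0.450). Choroid plexus markers summed over all kept barcodes moved with it, at 22098 and 24827 CPM in the combination pools and 4744 and 8002 CPM in the ICB pools, against 216 and 100.5 CPM in the PT2385 pools and 1.26 CPM in the untreated pool, and their part in the Ttr call was not tested.

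Il7r, the interleukin-7 receptor that sustains resting T cells and is usually low on regulatory T cells, stood at 544 and 447 CPM in the combination pools and 481 and 426 CPM in the ICB pools, against 249 and 260.3 CPM in the PT2385 pools and 255 CPM in the untreated pool. Every ICB-treated library lay above every other, at 475 ± 51.8 CPM against 255 ± 5.91 CPM (SD, n = 4 and 3). The log2 fold change was 0.90 ± 0.15 with an adjusted p of 0.0435. Its 1404 UMIs lay in 285 cells. Leaving out any single library kept the value between 0.81 and 0.97 and ended the call each time, with an adjusted p of 0.0514 to 0.349. Over all 19 alternatives it passed in 4.

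Emb, which encodes the adhesion glycoprotein embigin, stood at 719.6 and 895 CPM in the combination pools and 738 and 440.2 CPM in the ICB pools, against 323 and 304 CPM with PT2385 and 284 CPM in untreated mice. Again the groups did not overlap (1.22 ± 0.18, adjusted p = 0.0336). Leaving out 1 library gave values of 1.10 to 1.34, and the call held without either ICB pool and was lost without any of the other 5 libraries. It held in the 378 cells with fewer than 10 marker UMIs of other cell types (1.52 ± 0.19, adjusted p = 0.00147; 3 genes or 0.046% called there), where Il7r gave 0.88 (adjusted p = 0.124). With the myeloid criteria dropped it gave 0.75 ± 0.18 (adjusted p = 0.315) and did not pass. Over 19 alternatives the adjusted p of Emb ran from 4.5e-11 to 0.471 and passed in 8. The order was not particular to regulatory T cells. In conventional CD4 T cells Emb had 680 and 808 CPM in the combination pools and 1057 and 930 CPM in the ICB pools. The PT2385 pools had 317 and 398 CPM there and the untreated pool 677 CPM, so the groups did not overlap in those cells either. The ICB difference was not tested in conventional cells. Gm42418, which overlaps ribosomal RNA sequence and is often counted from it, averaged 3648 ± 213 CPM with and 2262 ± 384 CPM without ICB (0.71 ± 0.11, adjusted p = 0.0336). It held without the first ICB or the second combination pool and was lost without any other single library.

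Il7r was the only call among the resting T cell genes. Of 14 tested (15 listed), 3 were below 0 with ICB, where 49.1% of all genes were, and the median was 0.37. At an unadjusted p under 0.05, 4 were higher (3.13% of all genes) and 1 lower. S1pr1, the receptor that lets T cells leave tissue, averaged 54.8 ± 18.1 CPM with and 20.2 ± 15.1 CPM without ICB (1.71 ± 0.45, adjusted p = 0.524). Tcf7 gave 1.30 ± 0.46 and the survival gene Bcl2 1.03 ± 0.38, while Ccr7, the lymph node homing receptor, gave -0.76 ± 0.32. None of these passed.

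For the activation genes, ICB gave a median of 0.00 with 17 of 35 below 0 and 0 called. At an unadjusted p under 0.05, 3 were lower (2.94% of all genes) and 2 higher. Gzmb averaged 483 ± 226 CPM with and 817 ± 473 CPM without ICB (-0.98 ± 0.23, adjusted p = 0.336), with overlapping libraries. Cd83, a maturation gene of dendritic cells that T cells can also carry, averaged 115 ± 69.7 CPM with and 357 ± 123 CPM without ICB, without overlap (-1.60 ± 0.36, adjusted p = 0.336). Its value with the myeloid criteria dropped was 0.05. Irf4, a factor of effector regulatory T cells, averaged 55.2 ± 10.1 and 30.8 ± 9.29 CPM (0.77 ± 0.29), and did not pass. The type I interferon response genes leaned the same way with ICB as with PT2385. Of 33 tested, 28 were below 0 with ICB (49.1% of all genes), the median was -0.23 and 0 passed. At an unadjusted p under 0.05, 5 of them were lower (2.94% of all genes) and 0 higher.

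Combination and ICB pools were compared to see what PT2385 added on top of ICB. These libraries also enter both comparisons above, so the values are not independent of them. The edgeR quasi-likelihood test called 0 of 7551 genes (0%), DESeq2 called 2, and 433 genes had an unadjusted p under 0.05 (5.73%). The 5 genes with the smallest p were Napsa, Bcl11a, Actb, Enpp2 and Batf3, each at an adjusted p of 0.0873. Bcl11a and Batf3, factors used by dendritic cells, were at 0 in both combination pools, which is at least 14.3-fold and at least 7.63-fold lower than with ICB (against a floor of 3 UMIs over the group). Napsa had 5 UMIs in the combination and 118 with ICB, and dendritic markers summed to 4585 and 398 CPM in the combination and 3530 and 5705 CPM with ICB. Actb, the β-actin of the cell skeleton, averaged 6379 ± 257 CPM in the combination and 9057 ± 264 CPM with ICB (SD, n = 2 each; -0.53 ± 0.09). Enpp2, another choroid plexus gene, had 97 of its 106 UMIs in the single Ttr-rich cell.

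Of the 35 activation genes 0 passed and 23 were below 0 (49.8% of all genes), with a median of -0.21 against 0.00 for all genes. This turned without the first combination pool, where 16 were below 0 with a median of 0.07 and Nt5e passed, and with the stricter myeloid criteria, where 16 were below 0 (49.3% of all genes) with a median of 0.05. Without the second combination pool 26 were below 0 with a median of -0.39. At an unadjusted p under 0.05, 8 were lower (3.77%) and 2 higher (1.96%). Libraries did not overlap for 11 lower and 5 higher genes, but with 2 pools a side 16.6 and 18.5% of all genes were so placed. Gzmb averaged 293 ± 39.0 CPM in the combination and 673 ± 80.5 CPM with ICB (SD, n = 2 each; -1.24 ± 0.33, adjusted p = 0.501). Tnfrsf9 averaged 962 ± 154 and 1561 ± 383 CPM (-0.73 ± 0.20, adjusted p = 0.533), and Tnfrsf4 836 ± 168 and 1373 ± 372 CPM (-0.75 ± 0.21, adjusted p = 0.552). Nt5e averaged 698 ± 371 and 274 ± 27.6 CPM (1.29 ± 0.31, adjusted p = 0.328), and Pdcd1 314 ± 118 and 163 ± 73.4 CPM (0.92 ± 0.37, adjusted p = 0.864). Type I interferon genes had a median of -0.43 with 29 of 33 below 0.

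Whether PT2385 differed in its association with and without ICB was tested as an interaction, which rests on the single untreated library. 3 genes passed (0.0397%), Mcpt2, Cpa3 and Cma1, and all are mast cell genes with most of their UMIs in the single untreated barcode rich in Mcpt1 and Mcpt2. The second mast cell gene-rich barcode lies in the first combination pool, which enters the contrast with the same sign as the untreated pool. Next by p were Gzma (log2 value 5.91 ± 1.02 SE) and Tpsb2 (12.79 ± 2.16), which did not pass. No activation gene passed.

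The PT2385 difference in regulatory T cells was finally set against that in conventional CD4 T cells of the same libraries. 1 of 10391 genes passed (0.00962%), the immunoglobulin light chain gene Igkc, a plasma cell transcript. In regulatory cells it had 11.5 and 65.1 CPM in the PT2385 pools and 66.9 and 22.1 CPM in the combination pools, against 121 and 26.9 CPM with ICB and 30.9 CPM in untreated mice. In conventional cells it had 111 and 2294 CPM in the PT2385 pools and 9178 and 40.2 CPM in the combination pools, against 12.7 and 15.3 CPM with ICB and 21.6 CPM in untreated mice. The 2 high values are both of conventional cells. Among cells with fewer than 10 marker UMIs of other cell types the value was -0.38 (adjusted p = 1.00). The call was also lost without the first ICB pool (adjusted p = 0.0554), with DESeq2 (0.676), and with the myeloid criteria dropped (0.180) or stricter (0.112), over a range of 2.4e-177 to 1 in all alternatives. Next by p were Igha (-8.74 ± 1.33, adjusted p = 0.0625), Cpa3 (10.93 ± 1.69, adjusted p = 0.0625), Emb (0.95 ± 0.17, adjusted p = 0.168) and Tpsb2 (9.41 ± 1.78, adjusted p = 0.272). Among the members Cpa3 was detected in 5 barcodes and Tpsb2 in 9. Of the 35 activation genes 16 were below 0 (48.9% of all genes), the median was 0.04, and 0 passed. Nt5e had the smallest p among them (1.11 ± 0.24, adjusted p = 0.315), and Ikzf2, named after its value was seen, gave 0.75 ± 0.17 (adjusted p = 0.355). The data therefore gave no activation gene whose PT2385 difference in regulatory T cells passed as unlike that in conventional CD4 T cells.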

How the data were processed

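Droplet single-cell 3′ libraries of sorted leukocytes were deposited as UMI counts of 32285 genes per called barcode, with no normalization. The counts came from Cell Ranger 7.0.0 per the file headers, whereas the submitters' processing notes name version 2.2.0, GRCm39 and Seurat 5, whose clusters were not used here. 38 symbols stand for more than 1 gene ID. Kept were 40416 of 41033 barcodes. The members, the gene lists and the named genes were chosen with earlier results of these data known. In each comparison, genes were named that averaged 20 CPM or more and passed at an adjusted p of 0.05 (up to 12 rises and 12 falls, the largest first), or the 5 with the smallest p where fewer than 5 passed; activation genes are given by count and range, and those named without passing were chosen after their values were seen.

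Counts were summed per library over the 428 cells (181070 to 971240 UMIs), scaled with TMM, filtered with filterByExpr and tested in edgeR 4.0.16 (limma 3.58.1, R 4.3.3) with glmQLFit and glmQLFTest, Benjamini-Hochberg adjustment and a threshold of 0.05. PT2385 and ICB effects come from an additive model of all 7 libraries (4 residual degrees of freedom), and the combination against ICB and the interaction from 1 mean per group (3 residual degrees of freedom). The difference from conventional cells used 14 profiles with library as a term. The standard error was computed as |log2 fold change| divided by the root of the F statistic. Shares were compared by exact permutation. Ratios with few UMIs carry an exact 95% interval, or a floor of 3 UMIs over the group, which cover counting error only. Thinning, scoring and sums used Python 3.11.15, numpy 2.4.6, scipy 1.17.1 and scanpy 1.11.5. Scrublet's automatic threshold marked 11 barcodes in all, so doublet scores enter only as an alternative (0.8% per 1000 barcodes, 11 members removed); 20 members held over 3 times their library's median UMIs. The tests were tried on simulated data. Alternatives were DESeq2 1.42.0, RLE factors, no filter on low counts, other cell criteria, thinned cells, each library left out and, added after seeing the data, fewer than 10 marker UMIs of other cell types.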

Additional observations from a re-analysis of the deposited data

Results flagged for a closer look

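4 results differed between groups by a test of the difference itself, and no explanation is weighed. For the interaction of PT2385 and ICB, the edgeR quasi-likelihood fit gave log2 values of 10.65 for Mcpt2 (adjusted p = 0.00714), 14.73 for Cpa3 (adjusted p = 0.00992) and 10.55 for Cma1 (adjusted p = 0.0457), each meaning a larger log2 difference with PT2385 among ICB-treated than among other libraries. These fitted sizes depend on the prior count, because most libraries hold few or no UMIs of the genes. A single untreated cell held 2156 of 2186 Mcpt2 UMIs, 136 of 176 Cpa3 UMIs and 184 of 197 Cma1 UMIs, and a single cell of the first combination pool held 9, 37 and 6 UMIs of the same genes.

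The difference of the PT2385 effect between regulatory and conventional CD4 T cells was -7.46 for Igkc (adjusted p = 0.00342). Its highest levels were 9178 CPM in conventional cells of the first combination pool and 2294 CPM in those of the second PT2385 pool, against 121 CPM as the highest of any regulatory T cell profile. Among cells with fewer than 10 marker UMIs of other cell types the difference was -0.38.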

How the results depend on the processing

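No paired analysis was possible because the labels give mouse numbers and no replicate numbers shared between groups. Counts of genes with adjusted p under 0.05 moved under several settings. The PT2385 count of 4 became 133 without a filter on low counts, 7 with DESeq2, 1 with at least 2 Foxp3 UMIs, 46 in cells with no UMI of other cell types, and 0 with stricter myeloid criteria, with doublet scores and with fewer than 10 marker UMIs of other cell types. The ICB count of 7 became 127, 11, 0, 42, 1, 1 and 3 in that order, and 1 with the myeloid criteria dropped or with 1 mean per group. The combination count of 0 became 125 without the filter, 2 with DESeq2, 22 in cells with no UMI of other types and 2 in thinned cells. The interaction count of 3 became 58 without the filter, 1 in cells with no UMI of other types and 0 with at least 2 Foxp3 UMIs, either change of the myeloid criteria, thinning, doublet scores or fewer than 10 marker UMIs. The difference count of 1 became 85 without the filter, 0 with DESeq2, 2 with stricter criteria, 32 with no UMI of other types, 22 in thinned cells, 4 with doublet scores and 5 with fewer than 10 marker UMIs. Cells with no UMI of other types number 6 and 4 in the combination pools, and the causes were not tested.

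Leaving out each library gave 0 (without the untreated pool) to 8 calls for PT2385, with 1 without the first and 2 without the second PT2385 pool; 1 (without the untreated pool) to 7 for ICB, with 2 without the second PT2385 pool; 0 to 7 for the combination (7 and 5 without ICB pools 1 and 2, 4 without either combination pool); 0 to 6 for the interaction and 1 to 6 for the difference. Share differences kept their sign, at -0.702 to -0.239 percentage points for PT2385 and -0.448 to -0.0281 for ICB.

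Reversed values were few. For PT2385, Ikzf2 (-0.14 to 0.11 over single libraries left out) gave 0.11, 0.03 and 0.0035 without the untreated, second PT2385 and first ICB pool, and Mcpt2 0.40 with at least 2 Foxp3 UMIs (ICB 1.24). Stricter criteria gave 0.68 for Il1r2, 0.29 for Il10 and 0.21 for Klrg1 with PT2385, 0.028 for Il1r2 in the combination and -0.21 for Irf4 with ICB. Fewer than 10 marker UMIs gave 0.017 for Il1r2 (PT2385) and 0.26 for Ccr7 (ICB), and dropped criteria 0.049 for Cd83 (ICB). In cells with no UMI of other types Gm42418 gave -0.48 and Irf4 -0.12 with ICB, and in the difference Igkc 0.19, Cpa3 -3.83 and Tpsb2 -5.52. In the difference Tpsb2 also gave -0.24 with DESeq2, -4.35 without the first ICB pool and -5.48 without the first combination pool, and Cpa3 -1.87 without that combination pool, with highest values of 12.90 and 16.82 without the untreated pool.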
